A study of Mus musculus with 12 samples.

Results

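The effect of mechanical traction on scar tissue was examined in mice with an intact Tem1 gene, by comparing every expressed gene between stretched and non-stretched scars. The comparison took the 6 bulk RNA-seq libraries whose labels give the genotype Tem1WT/WT, 3 labelled Traction and 3 labelled Sham, of 12 libraries in the series. The remaining 6 libraries came from Tem1lacZ/lacZ mice, in which the lacZ reporter replaces Tem1 (Cd248), a cell surface protein of fibroblasts and pericytes, and which were backcrossed to C57BL/6 J for 10 generations. Male mice of 8 to 12 weeks had hair removed from the back and received a 1.5 cm split wound, and a plastic device was fitted 6 days later. In the traction group the device was lengthened by 1 mm a day until 8 mm was reached, and sham mice wore the same device without stretching. Both groups thus carry a wound and a device and differ by the stretch. Part of each scar, without its upper and lower margins, gave 1 library, and each library is a different mouse. All 12 libraries entered the fit, so the Tem1lacZ/lacZ mice share in its estimate of the spread.

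Wound closure lays down a collagen-rich dermis built by fibroblasts, which secrete fibrillar procollagens, modify them with prolyl and lysyl hydroxylases and crosslink them with lysyl oxidases. Tension on a healing wound is known to prolong matrix production and inflammation, and hypertrophic scars form preferentially where skin is under tension. Scar tissue also differs from the skin around it in having few hair follicles, sebaceous glands and fat cells, so that a piece of tissue cut around a scar can carry RNA of all of them. In such bulk tissue, fewer cells of a type and less RNA per cell of that type cannot be told apart.

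The 6 libraries held 43235107 to 64644293 counts in genes. Of 35976 genes listed, 18853 had enough counts to be tested. Levels are given as CPM after TMM scaling, the counts of a gene relative to the scaled library total, always in the order of replicates 1, 2 and 3. Fold changes are log2 of traction over sham from edgeR's quasi-likelihood test, with SE, and adjusted p is its Benjamini-Hochberg value over all 18853 genes. Defining genes of skin and scar, namely Col1a1 and Col3a1, the major dermal collagens, and Krt14, the keratin of the basal epidermis, were among the abundant genes in all 6 libraries, with Col3a1 at 13626, 19592 and 24457 CPM in sham and 24137, 41364 and 56601 CPM in traction. The libraries were not equally alike. The root mean square log2 difference over tested genes was 0.753 between traction replicates 2 and 3, but 1.10 and 1.14 between traction replicate 1 and these, and 0.581 to 0.766 among the sham libraries. Mitochondrially encoded genes took 3.95% to 4.38% of the counts in sham and 1.48% to 3.16% in traction, and the part of this shift in the results was not tested.

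Traction changed 1725 genes at an adjusted p under 0.05, which is 9.15% of those tested: 1057 rose (5.61%) and 668 fell (3.54%). The median log2 fold change was 1.19 among genes that rose and -1.55 among those that fell, against -0.01 over all genes tested. A rise of at least 2-fold was seen in 664 genes and of at least 16-fold in 68, while 535 genes fell by at least 2-fold and 29 by at least 16-fold. The genes that rose made up 4.94% to 6.17% of all counts in the sham libraries and 10.5% to 15.9% in the traction libraries. The genes that fell went from 2.83% to 4.31% of the counts to 0.933% to 1.64%. Under upper quartile scaling, which moved the median of all genes to -0.12, 734 genes rose and 939 fell. In 1695 of the 1725 changed genes the 3 sham and 3 traction values were fully separate, which held for 35.7% of the genes tested.

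The calls lay close to the threshold. The smallest adjusted p was 0.0154, and the biological coefficient of variation was 34.2%. No gene passed without sham replicate 1 (4229 genes at an unadjusted p under 0.05) or without sham replicate 2 (4847 genes). In edgeR on the 6 Tem1WT/WT libraries alone, again no gene passed, the smallest adjusted p being 0.0641 and 4876 genes having an unadjusted p under 0.05, whereas DESeq2 called 3174 genes on those libraries and 4047 on all 12, where 11.8% of genes were higher and 9.62% lower. Leaving out traction replicate 1 gave 279 genes higher (1.44% of those tested) and 81 lower (0.418%), 316 of them among the 1725, and leaving out traction replicate 3 gave 592 and 112, with 562 of the 704 among the 1725. Each of the 1725 genes kept its direction in all of these fits in which it was tested. They were called on these same libraries, which largely fixes their direction, so this is no independent evidence. Of the genes that rose, 690 had a level in traction replicate 1 within 2-fold of both other traction libraries, and 214 (20.2%) had over 2 times the larger of the other values there.

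**Figure D1:**
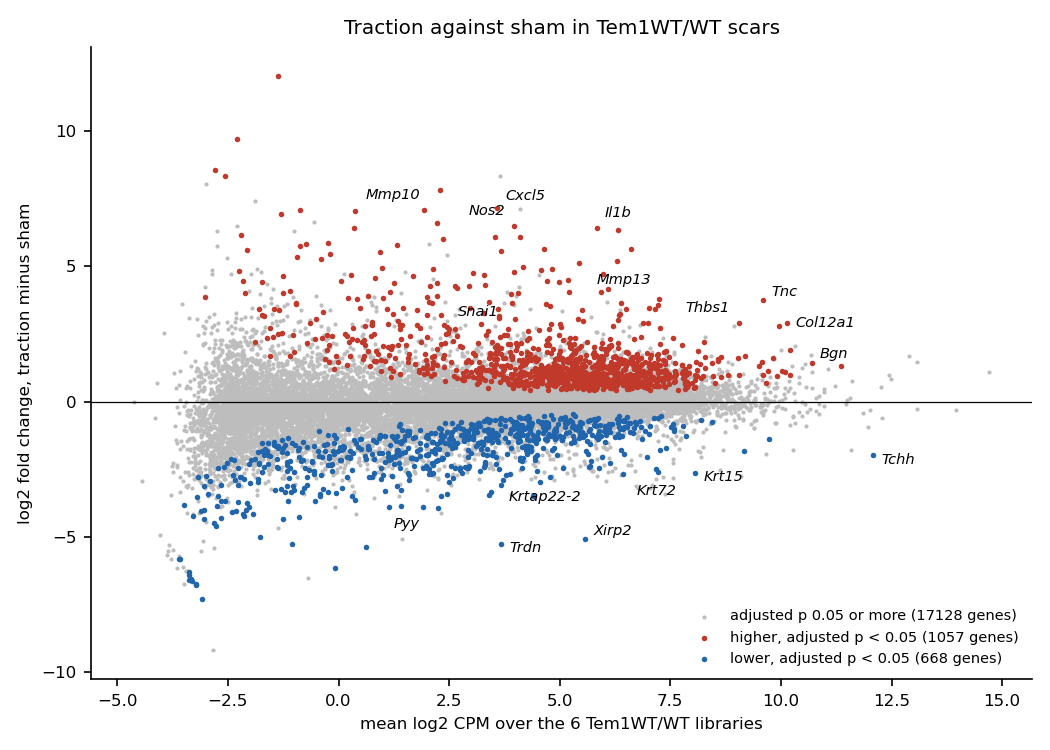
Log2 fold change of traction against sham (vertical axis) against the mean log2 CPM over the 6 Tem1WT/WT libraries (horizontal axis) for the 18853 genes tested. Red points are the 1057 genes that rose and blue points the 668 that fell at an adjusted p under 0.05, with inflammatory genes such as Cxcl5 and Il1b at the top, matrix genes such as Col12a1 and Tnc among abundant genes, and the hair gene Tchh as an abundant gene that fell. The plotted fold change of a gene with 0 counts in a group depends on the prior count and is no bound.

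Extracellular matrix genes rose across several families. Of 10 fibrillar collagen genes tested, 4 rose and none fell, with a median log2 fold change of 1.58 over the 10, all of which were positive. Among the non-fibrillar collagens 4 of 23 rose. Col12a1, a fibril-associated collagen of tissues under load, was at 181, 523 and 622 CPM in sham and 3102, 2751 and 4087 CPM in traction, a log2 fold change of 2.91 ± 0.47 (SE, edgeR adjusted p = 0.0242). Every traction value of Col12a1 was over 4 times the highest sham value, and sham replicate 1 was the lowest of the 6. Col24a1, a fibrillar collagen found with type I collagen, went from 3.56, 11.3 and 19.7 CPM to 75.7, 85.4 and 93.2 CPM, a log2 fold change of 2.88 ± 0.54 (SE, edgeR adjusted p = 0.0277). Col5a1 and Col5a2, the chains of type V collagen that sets fibril diameter, rose by 1.9 ± 0.50 (adjusted p = 0.0429) and 1.3 ± 0.36 (adjusted p = 0.0466) on the log2 scale. Col5a2 was the more abundant of them, with 1170.2, 1808 and 2208 CPM in sham and 3042, 4099.7 and 5648 CPM in traction. The traction libraries were higher than every sham library for both chains, with replicate 1 the lowest of the 3. Col7a1, the anchoring fibril collagen, rose by 1.83 ± 0.41 (adjusted p = 0.0329).

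The 3 most abundant collagens did not pass the edgeR test, although their sham and traction values were apart or nearly so. DESeq2 called these 3 and Col11a2 higher, and 9 of the 10 fibrillar collagen genes in all. Col1a1 was at 3475, 4635 and 5368 CPM in sham and 7601, 12293 and 23366 CPM in traction, a log2 fold change of 1.68 ± 0.50 (SE, edgeR adjusted p = 0.0553). Col1a2 was at 4649, 5841 and 6074 CPM and 7403, 13730.0 and 25145 CPM, with 1.48 ± 0.49, adjusted p = 0.0722. In both chains of type I collagen the traction libraries exceeded all sham libraries, and traction replicate 3 had about 3 times the level of replicate 1. Col3a1, given above, had a log2 fold change of 1.08 ± 0.42 (adjusted p = 0.105), and its traction replicate 1 lay below the highest sham library. Col11a2, a cartilage collagen chain, stayed under 6 CPM in all libraries, with 1.24 ± 0.38, adjusted p = 0.0619.

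Enzymes that modify and crosslink collagen were, with blood endothelium, the lists with the largest share of genes called. Of 27 tested, 17 rose and 1 fell, where 5.61% and 3.54% of all genes did, and their median log2 fold change was 1.15. Without traction replicate 1, 16 rose and none fell, so that this group kept nearly its whole count. Loxl3, a lysyl oxidase that crosslinks collagen, was at 14.6, 15.7 and 22.9 CPM in sham and 66.6, 69.1 and 102 CPM in traction, a log2 fold change of 2.16 ± 0.31 (SE, edgeR adjusted p = 0.0193). Plod3, a lysyl hydroxylase that also adds sugars to collagen, went from 42.4, 46.5 and 52.7 CPM to 140.2, 95.3 and 133 CPM, a log2 fold change of 1.38 ± 0.19 (SE, edgeR adjusted p = 0.0184). P4ha1, the catalytic subunit of prolyl 4-hydroxylase, rose about 2-fold in every traction library, from 116, 102 and 125 CPM to 240.3, 231 and 254 CPM (1.08 ± 0.17, adjusted p = 0.0239). Its values varied little within either group. Lox rose by 1.61 ± 0.36 (adjusted p = 0.0329). The most abundant member was Serpinh1, the collagen chaperone HSP47, at 841, 1157 and 1613 CPM and 1749, 2206 and 3713 CPM, with 1.09 ± 0.31, adjusted p = 0.0502, just over the threshold. The member that fell was Pcolce2, an enhancer of procollagen cleavage, named here after its value was seen, with a log2 fold change of -2.46.

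Among matricellular and adhesive glycoproteins, which sit in the matrix and act on cells more than on its strength, 8 of 21 rose and none fell. Tnc, tenascin-C, a matrix protein of wound edges, had 88.9, 417 and 309.9 CPM in sham and 7503, 1049 and 2412 CPM in traction, a log2 fold change of 3.75 ± 0.78 (SE, edgeR adjusted p = 0.031). Tenascin-C was also the gene with the largest rise in mean CPM of all genes called, and the 3 traction libraries differed among themselves by about 7-fold. Thbs1, thrombospondin-1, which can activate latent TGF-beta, went from 189, 204 and 234 CPM to 2905, 973 and 891 CPM, a log2 fold change of 2.93 ± 0.51 (SE, edgeR adjusted p = 0.0252). Spp1, osteopontin, went from 16.1, 48 and 93.5 CPM to 1019, 262 and 429 CPM (3.44 ± 0.68, adjusted p = 0.0288). For all of these genes traction replicate 1 had the highest level, and traction replicates 2 and 3 still exceeded the 3 sham libraries. Wisp1, also called Ccn4, showed the other order, with 15.5, 46.7 and 48.1 CPM and 128, 122 and 211 CPM (2.06 ± 0.41, adjusted p = 0.0282). Sparc, the most abundant member, did not pass the test (0.85 ± 0.34, adjusted p = 0.111).

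Elastic fibre and microfibril genes rose in part, with 5 of 17 higher and none lower at a median of 0.44. Emilin1, an elastic fibre glycoprotein, was among the most evenly raised genes, at 37.4, 58.3 and 55.3 CPM in sham and 298, 209 and 286 CPM in traction, a log2 fold change of 2.39 ± 0.33 (SE, edgeR adjusted p = 0.0184). Efemp2, needed for elastic fibre assembly, rose by 1.7 ± 0.34 (adjusted p = 0.0288) and Fbln2 by 1.63 ± 0.35 (adjusted p = 0.032). Fbn1, the main microfibril protein, was at 1064, 989 and 1535 CPM and 804, 1249.8 and 2442 CPM, with overlapping groups and 0.33 ± 0.44, adjusted p = 0.651. The small leucine-rich proteoglycans, which coat collagen fibrils, showed 1 gene higher and 1 lower of 13. Bgn, biglycan, rose from 836, 1029 and 1186 CPM to 2439, 2470.4 and 3407 CPM, a log2 fold change of 1.45 ± 0.24 (SE, edgeR adjusted p = 0.0252), whereas Dcn, decorin, the most abundant of the family, lay at 3118, 2233 and 3441 CPM and 2772, 2772 and 2725 CPM (-0.09 ± 0.22, adjusted p = 0.82).

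Basement membrane genes moved in opposite directions by chain, with 4 of 20 higher and 3 lower. Col4a1, a chain of the type IV collagen present under all vessels and epithelia, was at 187, 487 and 340.1 CPM in sham and 1177, 879 and 1175 CPM in traction (1.67 ± 0.42, adjusted p = 0.0392). Nid2, a linker protein of the same sheets, went from 15.5, 41.3 and 36.9 CPM to 92.2, 135 and 198 CPM (2.18 ± 0.46, adjusted p = 0.0311). The chains with restricted expression fell: Col4a4 went from 17.6, 8.65 and 5.41 CPM to 1.9, 2.36 and 2.88 CPM (-2.15 ± 0.48, adjusted p = 0.0329). Col4a6 fell by the fitted value of -1.97 ± 0.39 (adjusted p = 0.0281), with each traction library below each sham library. These chains lay under 20 CPM in all 6 libraries, far below Col4a1.

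Proteases and their inhibitors rose together. Of 17 matrix metalloproteinases 5 rose and none fell, and of 14 TIMPs and plasminogen system genes 5 rose and none fell. Mmp13, a collagenase, was at 14.5, 11.2 and 35.2 CPM in sham and 1929, 154 and 138 CPM in traction, a log2 fold change of 5.19 ± 1.06 (SE, edgeR adjusted p = 0.03). Mmp10, stromelysin-2, went from 1.04, 0.261 and 1.29 CPM to 341, 1.9 and 10.5 CPM (7.1 ± 1.66, adjusted p = 0.0348), and its log2 fold change was 2.82 without traction replicate 1. Mmp14 and Mmp2, the membrane-bound activator and the gelatinase it activates, rose more evenly. Mmp14 had 391, 462 and 543 CPM in sham and 1072, 965 and 1463 CPM in traction (1.33 ± 0.26, adjusted p = 0.0278), and Mmp2 had 752, 625 and 761 CPM and 1229, 1499 and 1914 CPM (1.12 ± 0.29, adjusted p = 0.0416). On the inhibitor side, A2m, a broad protease inhibitor, rose by 4.46 ± 0.78 (adjusted p = 0.0252) from under 0.4 CPM in sham, with its highest value in traction replicate 3. Timp2, the most abundant inhibitor listed, did not pass (0.40 ± 0.36, adjusted p = 0.47).

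TGF-beta is the main inducer of scar matrix, and both its response genes and the genes that transmit its signal rose in part. Of 20 response genes 10 rose, none fell and all 20 fold changes were positive (median 1.25). Without traction replicate 1, 3 passed at a median of 0.98, and 15 rather than 16 had an unadjusted p under 0.05. Snai1, a transcription factor induced by TGF-beta, had the smallest adjusted p of all genes tested, with 4.36, 6.05 and 6.58 CPM in sham and 47.2, 31 and 32.2 CPM in traction, a log2 fold change of 2.7 ± 0.29 (SE, edgeR adjusted p = 0.0154). Pmepa1, a feedback inhibitor of the pathway, went from 36.4, 50.02 and 56.3 CPM to 135, 77.3 and 116 CPM (1.2 ± 0.23, adjusted p = 0.0278). Of 20 ligands, receptors and Smads 6 rose and none fell. Without traction replicate 1, 2 passed, while the median was 0.79 against 0.67 and 16 rather than 13 genes had an unadjusted p under 0.05. Tgfb1, the main ligand in wounds, went from 31.4, 33.2 and 42.7 CPM to 188, 72.9 and 83.2 CPM (1.68 ± 0.39, adjusted p = 0.0334). Inhbb, an activin chain, was at 52.6, 49.8 and 45.5 CPM and 125, 95.8 and 115 CPM (1.18 ± 0.17, adjusted p = 0.0193). Lrrc32, which displays latent TGF-beta on the cell surface, rose by 1.23 ± 0.26 (adjusted p = 0.0311). Tgfbr2, the type II receptor and the most abundant member, lay at 385, 336 and 406 CPM and 340.2, 644 and 748 CPM and did not pass (0.62 ± 0.33, adjusted p = 0.222), with traction replicate 1 close to the sham level.

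Genes tied to cell stretch and the YAP factors rose in 6 of 24 cases with none lower. In the fit without traction replicate 1, 1 of 24 passed, while the median was 0.60 against 0.54 and 14 genes had an unadjusted p under 0.05 in both fits. Cyr61 (Ccn1), a textbook YAP target, was at 42.1, 47.6 and 91.8 CPM in sham and 168, 261 and 195 CPM in traction, a log2 fold change of 1.78 ± 0.36 (SE, edgeR adjusted p = 0.03). Zyx, zyxin, a protein recruited to stretched adhesions, went from 74.6, 87.8 and 99.6 CPM to 338, 158 and 210.4 CPM (1.43 ± 0.31, adjusted p = 0.0317). Tead2, a DNA-binding partner of YAP, rose by 1.31 ± 0.34 (adjusted p = 0.0398), and Flna, the actin crosslinker filamin A, by 0.93 ± 0.25 (adjusted p = 0.0431). Contractile and myofibroblast genes behaved otherwise, with 1 of 17 higher, Cnn2 (0.78 ± 0.19, adjusted p = 0.0355), and a median of 0.09 that turned to -0.01 under upper quartile scaling. Leaving out traction replicate 1 gave a median of 0.46 and 2 genes that passed.

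Vessel markers rose in nearly equal measure in the 3 traction libraries. Of 18 blood endothelial markers 12 rose and none fell, where 5.61% of all genes rose. The groups did not overlap for 17 of the 18, against 35.7% of all genes tested, and the median log2 fold change was 1.17. The list's median level lay 1.02 to 1.16 log2 units above the sham mean in all 3 traction libraries, so traction replicate 1 did not stand apart for vessels, although 5 genes rather than 12 passed without it, at a median of 1.09. Pecam1, which encodes the junction protein CD31, was at 122, 159 and 196 CPM in sham and 355, 343 and 335 CPM in traction, a log2 fold change of 1.11 ± 0.23 (SE, edgeR adjusted p = 0.0301). Tie1, an endothelial receptor, went from 18.1, 27.9 and 27.8 CPM to 51.7, 65.7 and 98.4 CPM (1.55 ± 0.28, adjusted p = 0.0252), and Sox18, an endothelial transcription factor, from 6.25, 10.1 and 10.3 CPM to 24.6, 21.5 and 33.3 CPM (1.57 ± 0.29, adjusted p = 0.0252). The vessel-destabilising ligand Angpt2 rose by 1.91 ± 0.38 (adjusted p = 0.0288). Of 6 lymphatic markers none was called by edgeR (3 at an unadjusted p under 0.05), and DESeq2 called 1 higher and 1 lower.

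Fibroblast markers rose in 4 of 16 and pericyte markers in 2 of 10, where 5.61% of all genes rose. The medians of these lists were 0.59 and 0.61, with 5 and 2 members negative. Without traction replicate 1, 1 fibroblast and 3 pericyte markers were called higher. Pdgfra, the receptor that marks fibroblasts, went from 202, 207 and 249 CPM to 936, 449.6 and 408 CPM (1.45 ± 0.33, adjusted p = 0.0329). Pdgfrb, shared by fibroblasts and pericytes, went from 60.1, 62 and 77.1 CPM to 255, 151 and 203 CPM (1.61 ± 0.28, adjusted p = 0.0252). Both receptors were highest in traction replicate 1. Cd248 itself lay at 119, 138 and 193 CPM in sham and 92.4, 197 and 337 CPM in traction, with a log2 fold change of 0.48 ± 0.50 (SE, edgeR adjusted p = 0.542). The 2 groups of Cd248 values overlapped, traction replicate 1 being the lowest and traction replicate 3 the highest of the 6, and without replicate 3 the fitted change was -0.05. Chondrocyte and tendon markers had no gene called of 12 by edgeR (5 at an unadjusted p under 0.05) and 3 lower by DESeq2, at a median of -0.52.

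Red cell genes rose in part. Of 9 tested 4 rose and none fell, where 5.61% of all genes rose, and 8 were positive. DESeq2 called 6 higher and 1 lower. The list's median level stood 1.26, 0.72 and 0.55 log2 units above the sham mean in traction replicates 1, 2 and 3. Its median log2 fold change was 1.02, and 0.56 without replicate 1. The called genes named here were raised more evenly. Hbb-bs, a beta globin, was at 35.5, 42 and 38.9 CPM in sham and 97.3, 103 and 85.6 CPM in traction, a log2 fold change of 1.3 ± 0.18 (SE, edgeR adjusted p = 0.0184). Alas2, the first enzyme of haem synthesis in red cells, went from 10.1, 13.2 and 9.68 CPM to 26.2, 22.9 and 18.5 CPM (1.04 ± 0.18, adjusted p = 0.0252). Hba-a1 rose by 1.06 ± 0.17 (adjusted p = 0.0239), and reads of Hba-a1 can be split with its near-identical copy Hba-a2. All 4 genes were also called without traction replicate 1.

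**Figure D2:**
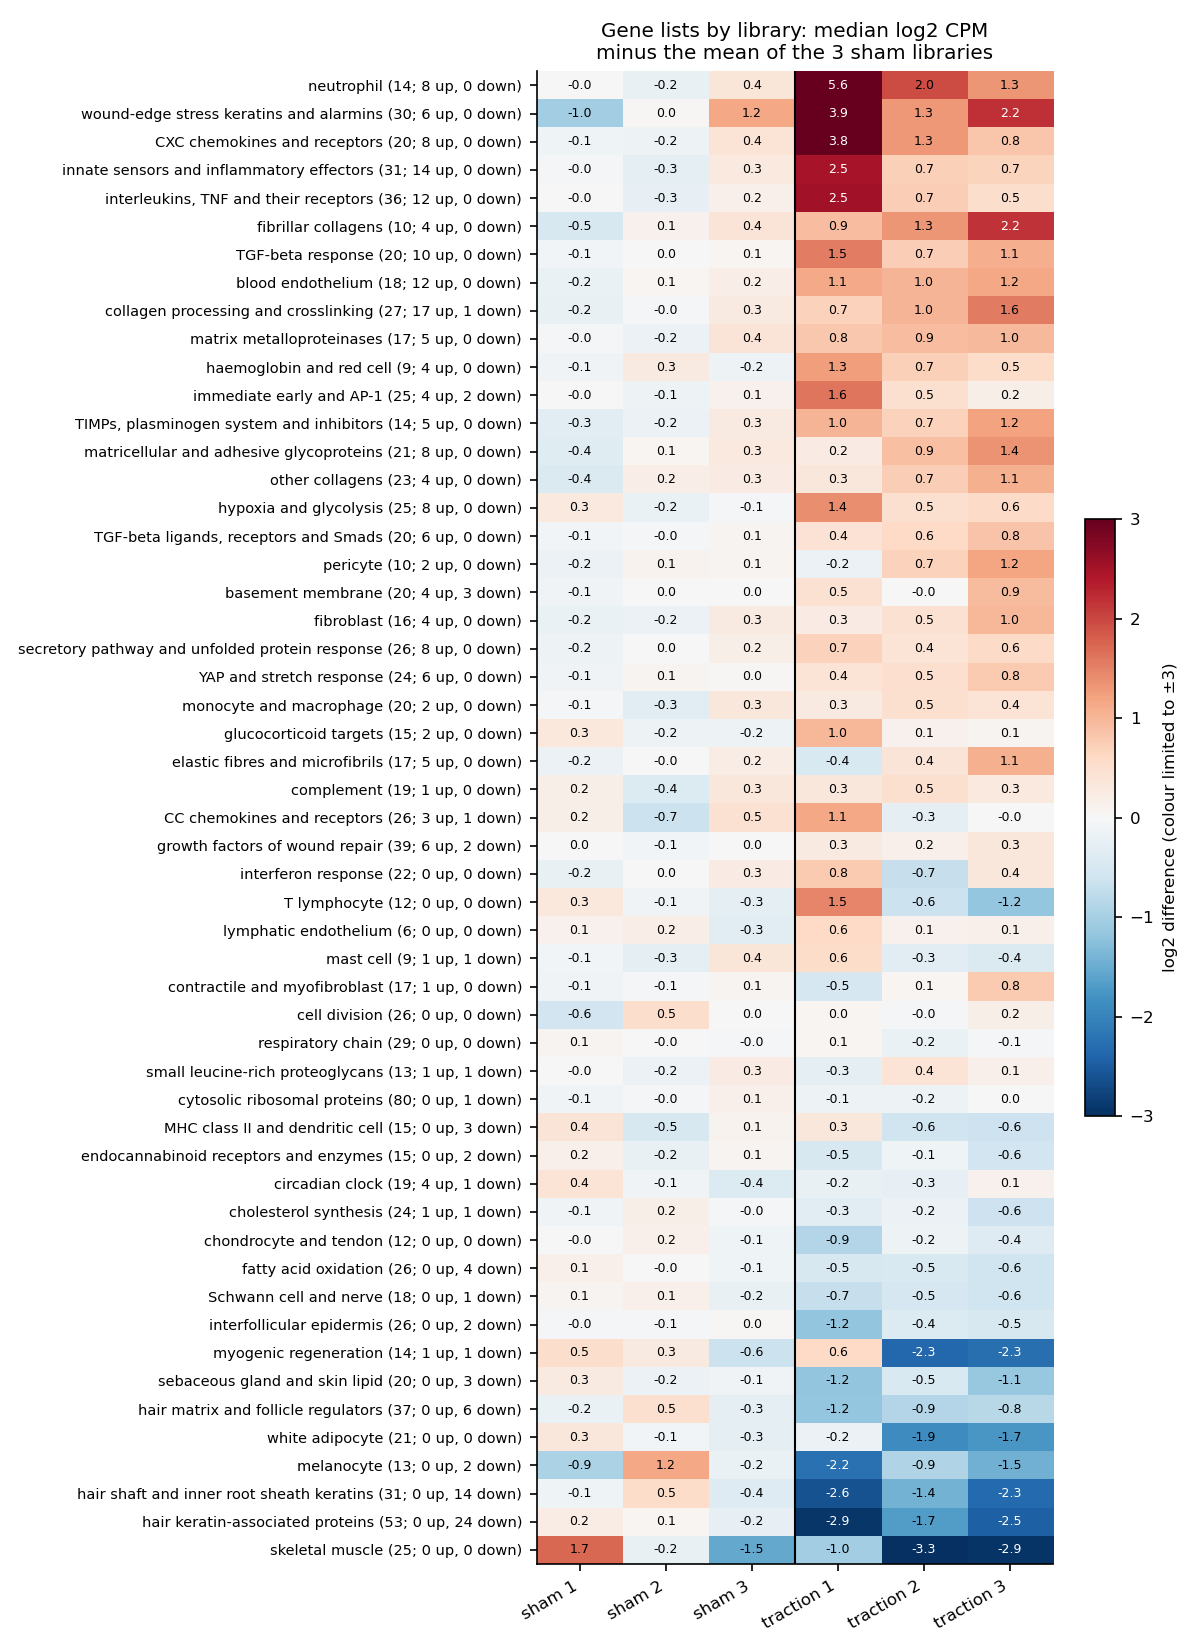
Median log2 level of each gene list in each of the 6 libraries (columns), as the difference from the mean of the 3 sham libraries, with lists ordered by their median log2 fold change. Brackets give the genes tested and the numbers that rose and fell. The neutrophil list is 5.61 above sham in traction replicate 1 and 1.97 and 1.34 in the others, the endothelial list is near 1.1 in all 3, and the hair shaft and keratin-associated protein lists are lowest in traction replicates 1 and 3.

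Inflammatory genes held many of the largest fold changes, and their levels were highest in traction replicate 1. Of 14 neutrophil markers 8 rose and none fell, all 14 were positive, and the median was 4.44, or 1.56 without that library, where 4 passed. The list's median level stood 5.61 log2 units above sham in traction replicate 1, 1.97 in replicate 2 and 1.34 in replicate 3. Csf3r, the receptor of the neutrophil growth factor G-CSF, was at 15.8, 13.6 and 20.1 CPM in sham and 954, 285 and 51.6 CPM in traction, a log2 fold change of 4.7 ± 0.83 (SE, edgeR adjusted p = 0.0252). Trem1, an amplifying receptor of neutrophils, went from 0.478, 0.392 and 1.31 CPM to 187, 13.5 and 13.4 CPM (6.61 ± 1.2, adjusted p = 0.0252). Mmp9, a gelatinase stored in neutrophil granules, went from 22, 12 and 24.1 CPM to 757, 141 and 150.2 CPM (4.17 ± 0.71, adjusted p = 0.0252). For these 3 genes each traction library exceeded each sham library. S100a9, a subunit of calprotectin and the most abundant marker, was at 8.51, 45.4 and 31.1 CPM and 3935, 125 and 141 CPM (5.63 ± 1.33, adjusted p = 0.0349). Its traction replicates 2 and 3 were over 2 times the highest sham value, and replicate 1 was far above them. Csf3, the gene of G-CSF itself, had 0 counts in each sham library, which allows up to 0.0435 to 0.0651 CPM with a floor of 3 counts per library, and 1248, 58 and 60 counts in the traction libraries, or 29.7, 1.28 and 1.23 CPM (edgeR adjusted p = 0.0311).

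CXC chemokines, most of which attract neutrophils through Cxcr2, rose in 8 of 20 genes with their receptors, none fell and all 20 were positive. The median was 2.34, 16 of the 20 were highest in traction replicate 1, and without it 4 passed at a median of 0.94. Cxcl5 was at 0.478, 1.23 and 1.93 CPM in sham and 352, 114 and 55.9 CPM in traction, a log2 fold change of 7.15 ± 1.07 (SE, edgeR adjusted p = 0.0217). Cxcl1 went from 1.19, 1.09 and 3.82 CPM to 66.4, 37.6 and 15.8 CPM (4.29 ± 0.62, adjusted p = 0.0193). Both were raised in all 3 traction libraries by far more than the spread of the sham libraries. Cxcl3 went from 0.912, 0.29 and 1.46 CPM to 582, 2.38 and 21.3 CPM (7.84 ± 2.15, adjusted p = 0.0475), with the smallest rise in traction replicate 2 and a log2 fold change of 3.71 without replicate 1. Cxcl2 was at 1.76, 0.856 and 11.2 CPM and 1807, 8.77 and 87.3 CPM, and its groups overlapped (7.1 ± 2.21, adjusted p = 0.0637). Cxcr4, the receptor of Cxcl12, went from 13.7, 16.1 and 22.7 CPM to 125, 97.4 and 44.1 CPM, a log2 fold change of 2.35 ± 0.33 (SE, edgeR adjusted p = 0.0184). Among CC chemokines and receptors 3 of 26 rose and 1 fell. Ccr1, a receptor of myeloid cells, rose by 3.38 ± 0.70 (adjusted p = 0.031), and Ccl7, a monocyte attractant, by 1.16 ± 0.27 (adjusted p = 0.0329). Ccl20, a chemokine of epithelium, fell from 8.97, 2.52 and 3.87 CPM to 0.785, 1.83 and 0.945 CPM (-2.1 ± 0.50, adjusted p = 0.0352).

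Interleukins, TNF and their receptors rose in 12 of 36 genes with none lower, at a median of 1.69, against 2 without traction replicate 1 at a median of 0.56. Il1b, the inflammasome-dependent cytokine interleukin-1 beta, was at 5.9, 6.53 and 32.6 CPM in sham and 3698, 86 and 84.9 CPM in traction, a log2 fold change of 6.42 ± 1.7 (SE, edgeR adjusted p = 0.0432). Osm, oncostatin M, a cytokine of the interleukin-6 family, went from 0.695, 0.856 and 2.47 CPM to 244, 4.13 and 11.3 CPM (6.0 ± 1.48, adjusted p = 0.0381). In both, replicates 2 and 3 of traction were above all sham libraries, but replicate 1 was over 20 times higher still. Il17ra, the receptor chain of interleukin-17, was raised with less spread, from 25.2, 20.4 and 21.9 CPM to 122, 58.8 and 39.7 CPM (1.71 ± 0.35, adjusted p = 0.0299). Il4ra, the receptor chain for interleukins 4 and 13, went from 105, 71.1 and 102 CPM to 885, 309.9 and 216 CPM (2.35 ± 0.50, adjusted p = 0.0311). Tnf was at 3.28, 2.61 and 2.74 CPM and 101, 1.28 and 6.8 CPM and did not pass (3.67 ± 1.19, adjusted p = 0.0702), its replicate 2 of traction lying below every sham library.

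Innate sensors and effectors rose in 14 of 31 genes with none lower, at a median of 1.72, against 3 without traction replicate 1 at a median of 0.69. Nos2, the inducible nitric oxide synthase, was at 1.74, 1.13 and 3.11 CPM in sham and 391, 86.8 and 66.8 CPM in traction, a log2 fold change of 6.51 ± 0.78 (SE, edgeR adjusted p = 0.017). Its lowest traction value was over 20 times its highest sham value. Nlrp3, the inflammasome sensor, went from 3.02, 2.07 and 2.77 CPM to 501, 13.6 and 19 CPM (6.09 ± 1.29, adjusted p = 0.0311), and Clec4e, a myeloid receptor for damaged cells, from 2.24, 2.68 and 6.86 CPM to 749, 32.7 and 25 CPM (6.09 ± 1.35, adjusted p = 0.0329). Clec4d, its partner, rose by 4.41 ± 0.92 (adjusted p = 0.0309). Saa3, an acute-phase protein, went from 12.8, 11 and 16.5 CPM to 2750.1, 465 and 85.5 CPM (6.36 ± 1.41, adjusted p = 0.0329). Arg1, an arginine-degrading enzyme of wound macrophages, went from 35.8, 56.5 and 54.2 CPM to 587, 309 and 207 CPM (2.91 ± 0.67, adjusted p = 0.0334). Fth1, the heavy chain of ferritin, which stores iron, was at 523, 379 and 516 CPM and 7666, 1225 and 998 CPM (2.8 ± 0.69, adjusted p = 0.0378), and was the third largest rise in CPM among the genes called, again led by replicate 1.

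Few genes of the other immune groups rose, where 5.61% of all genes did. Monocyte and macrophage markers rose in 2 of 20, Arg1 and Cd14, and the most abundant of them, Lyz2, was at 1303, 1023 and 1962 CPM in sham and 2201, 2146 and 1753 CPM in traction (0.51 ± 0.33, adjusted p = 0.318). Complement had 1 of 19 higher, near the share of all genes: C5ar1, the receptor of the fragment C5a (2.01 ± 0.53, adjusted p = 0.043). None of 22 interferon response genes and none of 12 T lymphocyte genes passed in edgeR (4 and 0 at an unadjusted p under 0.05), and DESeq2 called none of either list. The T lymphocyte list was split by library, its median level relative to the sham mean being 1.46, -0.65 and -1.17 log2 units in traction replicates 1, 2 and 3. Without replicate 1 its median fold change went from 0.21 to -0.96, 1 gene was called lower and 6 of 12 had an unadjusted p under 0.05. Gbp2, an interferon-induced GTPase, was at 43.4, 44.1 and 59.6 CPM and 1434, 37.8 and 50.9 CPM, so the only raised library was traction replicate 1 (3.37 ± 1.16, adjusted p = 0.0801), and without it the fold change was -0.16. Of the MHC class II and dendritic cell list 3 of 15 fell and none rose, where 3.54% of all genes fell. Without traction replicate 1, 1 of them was called lower in edgeR. Xcr1, a marker of cross-presenting dendritic cells, went from 5.38, 2.28 and 3.51 CPM to 1.24, 0.729 and 0.616 CPM (-2.11 ± 0.38, adjusted p = 0.0252), and Cd207, langerin of the epidermal Langerhans cells, from 27.7, 13.4 and 17.7 CPM to 3.81, 6.01 and 7.58 CPM (-1.76 ± 0.45, adjusted p = 0.0403). Cd209a fell by the fitted value of -1.43 ± 0.28 (adjusted p = 0.0278), whereas Cd74, the invariant chain of all these cells, had -0.17 ± 0.41, adjusted p = 0.812. In the mast cell list Ms4a2, a chain of the IgE receptor, fell (-1.28 ± 0.31, adjusted p = 0.0355), and Hdc, histidine decarboxylase, rose (5.63 ± 1.33, adjusted p = 0.0353), with 1009, 16.6 and 45.3 CPM in traction against 5.08, 5.57 and 11 CPM in sham. Histidine decarboxylase is also made by neutrophils and other myeloid cells.

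**Figure D3:**
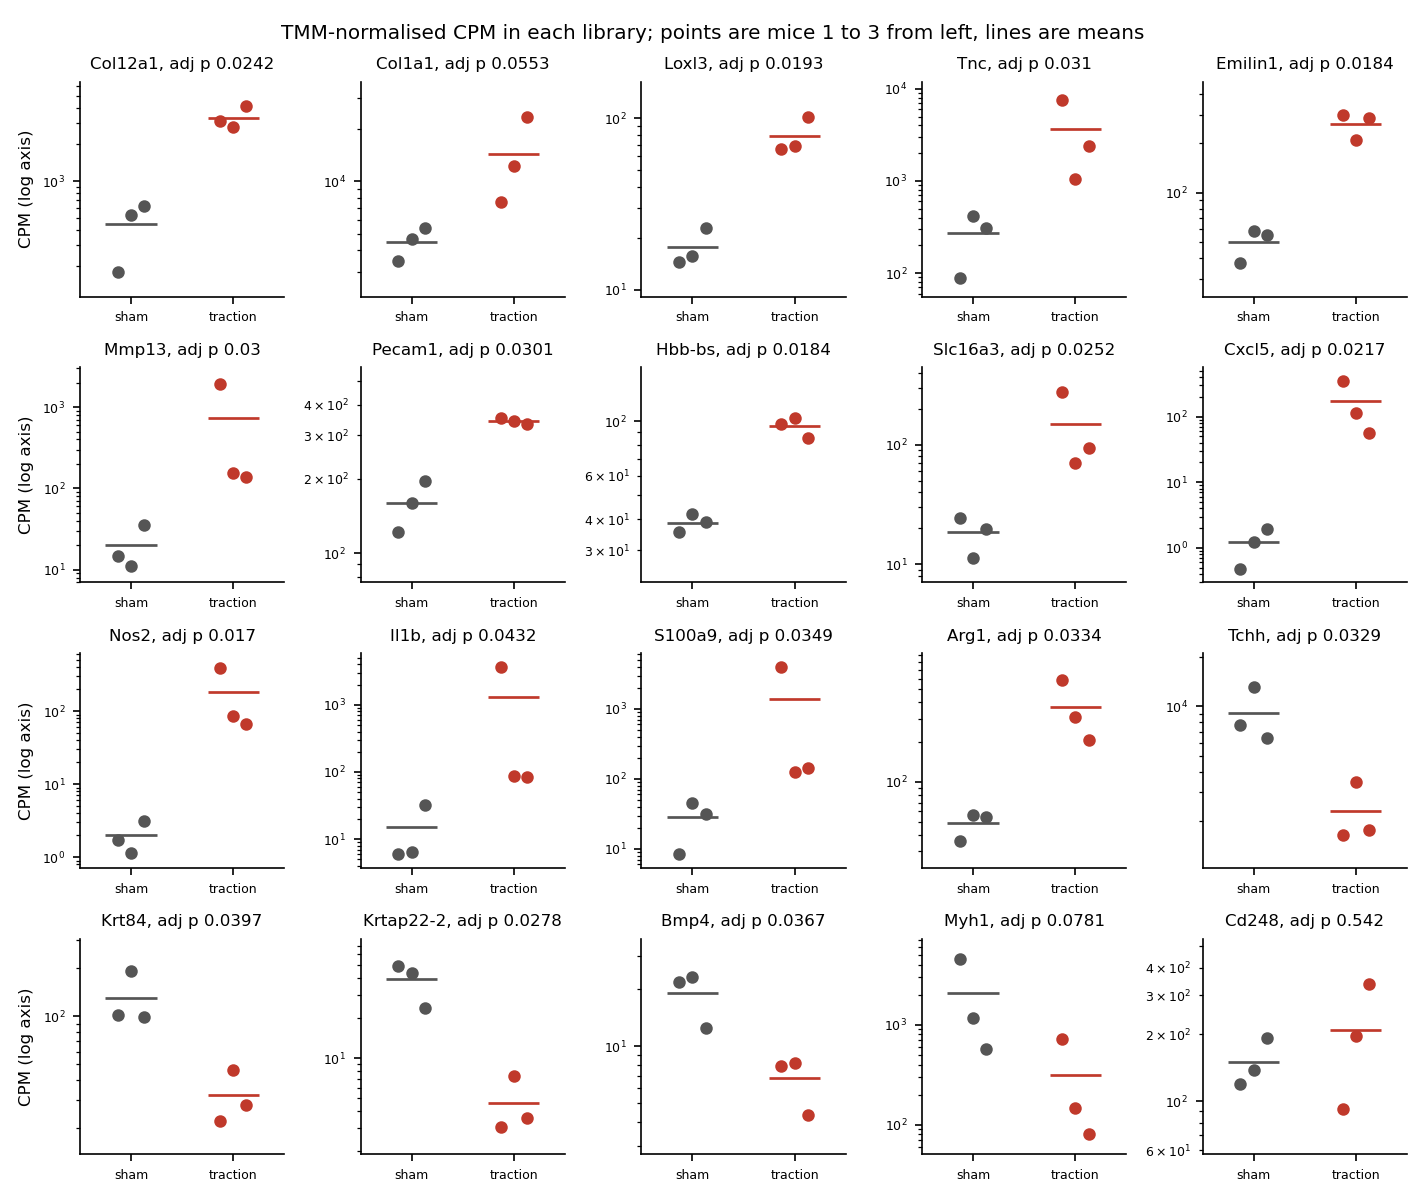
Level of 20 genes in each of the 6 libraries, as TMM-normalised CPM on a logarithmic axis that differs between panels, with the group mean as a line and the edgeR adjusted p over each panel. Col12a1, Emilin1, Pecam1 and Hbb-bs are raised evenly in the 3 traction libraries, Il1b and S100a9 are highest by far in traction replicate 1, and the groups overlap for Myh1 and Cd248.

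The upstream sequences of a few of these genes were read from the RefSeq promoter table (build GRCm38.p6), because chemokines, metalloproteinases and hair genes moved as groups. Each is the 250 bases before the annotated start, 5′ to 3′ in the direction of the gene. In Cxcl1 (chr5:90890995-90891244, + strand) and Cxcl3 (chr5:90785851-90786100, + strand) the capitals mark a match to the NF-kappaB consensus, 71 and 73 bases before the start, which reads as a match on both strands through overlapping letters.
Cxcl1: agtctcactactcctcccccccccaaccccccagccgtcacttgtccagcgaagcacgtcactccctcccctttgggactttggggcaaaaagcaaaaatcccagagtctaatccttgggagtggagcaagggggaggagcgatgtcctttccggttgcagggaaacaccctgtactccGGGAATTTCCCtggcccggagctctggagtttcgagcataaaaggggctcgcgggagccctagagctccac
Cxcl3: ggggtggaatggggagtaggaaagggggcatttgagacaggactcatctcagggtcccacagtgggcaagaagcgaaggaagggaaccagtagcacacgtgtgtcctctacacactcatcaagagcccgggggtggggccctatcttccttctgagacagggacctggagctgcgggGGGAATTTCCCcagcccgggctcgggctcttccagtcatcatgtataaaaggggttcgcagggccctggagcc
In Mmp10 (chr9:7502092-7502341, + strand) and Mmp13 (chr9:7272264-7272513, + strand) the capitals mark the AP-1 motif TGANTCA, 63 and 35 bases before the start.
Mmp10: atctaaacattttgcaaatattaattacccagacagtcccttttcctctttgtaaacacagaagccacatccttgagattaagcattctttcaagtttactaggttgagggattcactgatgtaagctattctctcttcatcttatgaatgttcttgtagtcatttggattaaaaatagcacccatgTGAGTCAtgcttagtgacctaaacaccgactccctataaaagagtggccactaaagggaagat
Mmp13: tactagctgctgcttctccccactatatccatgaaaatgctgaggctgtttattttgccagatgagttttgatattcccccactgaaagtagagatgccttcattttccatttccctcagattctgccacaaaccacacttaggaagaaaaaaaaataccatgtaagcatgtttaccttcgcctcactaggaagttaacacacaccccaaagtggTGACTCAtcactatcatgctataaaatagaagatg
In the hair genes Krtap4-2 (chr11:99635085-99635334, - strand) and Krtap22-2 (chr16:89010760-89011009, - strand) the capitals mark the letters TATAAA, at 61 and 29 bases before the start in the first and 35 in the second.
Krtap4-2: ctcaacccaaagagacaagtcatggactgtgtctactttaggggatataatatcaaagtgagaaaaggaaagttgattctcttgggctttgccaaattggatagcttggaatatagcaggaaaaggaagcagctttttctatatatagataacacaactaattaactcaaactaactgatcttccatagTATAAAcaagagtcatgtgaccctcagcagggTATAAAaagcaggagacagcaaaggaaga
Krtap22-2: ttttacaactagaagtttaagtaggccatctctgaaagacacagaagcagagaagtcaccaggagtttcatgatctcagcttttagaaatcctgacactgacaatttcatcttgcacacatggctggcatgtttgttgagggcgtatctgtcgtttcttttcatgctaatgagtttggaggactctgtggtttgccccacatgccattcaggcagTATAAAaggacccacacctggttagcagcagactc
These matches were common to many genes. TATAAA was marked above only in the hair genes. The same letters also lie, unmarked, on the gene strand in the printed windows of Cxcl3, Mmp10 and Mmp13. The NF-kappaB consensus, searched on both strands, was present in 7.42% of 1025 windows of genes that rose, 4.05% of 642 windows of genes that fell, 4.68% of 17438 windows of all genes tested and 3.90% of all 32851 windows. TGANTCA, also on both strands, was in 6.63%, 7.48%, 5.53% and 6.75% of the same sets. The TEAD motif GGAATG was in 11.4%, 9.81%, 11.4% and 12.6%. TATAAA on the strand of the gene was in 5.37% of windows of genes that rose and 12.5% of those of genes that fell, against 5.31% of all tested and 7.59% of all windows. Windows of gene clusters such as the Krtap family share sequence, and these shares carry no test.

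Factors of the AP-1 family and other immediate early genes rose in 4 of 25 cases and fell in 2. Fosl1 was at 0.412, 0.508 and 0.999 CPM in sham and 8.42, 3.14 and 3.29 CPM in traction (2.94 ± 0.53, adjusted p = 0.0252), and Fosl2 went from 119, 148 and 148 CPM to 518, 252 and 302 CPM (1.37 ± 0.27, adjusted p = 0.0278). Egr2 fell from 90.8, 60.6 and 53.3 CPM to 25.5, 41.2 and 23.1 CPM (-1.19 ± 0.28, adjusted p = 0.0338), while Junb, the most abundant member, was at 128, 113 and 128 CPM and 982, 177 and 153 CPM and did not pass (1.83 ± 0.58, adjusted p = 0.0651). Of the clock genes 4 of 19 rose and 1 fell, where 5.61% and 3.54% of all genes did. Most of the list went the other way, with 6 positive and 13 negative members at a median of -0.25. Without traction replicate 1 none of the 19 was called in edgeR. Npas2 rose by 1.94 ± 0.48 (adjusted p = 0.0383), Cry1 by 0.96 ± 0.23 (adjusted p = 0.0364) and Per1 by 0.84 ± 0.18 (adjusted p = 0.0311). The time of day of sampling is not given in the sources used here, so its part could not be examined. Fkbp5, a glucocorticoid target, went from 43.5, 31.5 and 28.7 CPM to 68.3, 54 and 89.8 CPM (1.03 ± 0.26, adjusted p = 0.0397) and was with Per1 one of the 2 genes called of 15 in that list.

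Glycolysis genes rose in part and fatty acid oxidation genes fell in part. Of 25 hypoxia and glycolysis genes 8 rose, none fell and 24 were positive, with 23 highest in traction replicate 1 and 2 called without it, where the median was 0.55 against 0.90. Slc16a3, the lactate exporter MCT4, was at 24.4, 11.2 and 19.7 CPM in sham and 278, 70.5 and 94.1 CPM in traction, a log2 fold change of 3.0 ± 0.52 (SE, edgeR adjusted p = 0.0252). Hif1a, the hypoxia factor, went from 167, 254 and 297 CPM to 1065, 544 and 441 CPM (1.51 ± 0.34, adjusted p = 0.0329), and Pgam1, a glycolytic mutase, from 87.1, 98.8 and 98.1 CPM to 324, 157 and 199.7 CPM (1.26 ± 0.23, adjusted p = 0.0252). Of 26 fatty acid oxidation genes 4 fell and none rose. Acot1, an acyl-CoA thioesterase, went from 59.4, 55.3 and 37 CPM to 16.5, 29.4 and 17.5 CPM (-1.26 ± 0.30, adjusted p = 0.0355), and Ppargc1a, the co-activator PGC-1 alpha, from 11, 7.34 and 4.21 CPM to 2.12, 2.41 and 0.74 CPM (-2.1 ± 0.47, adjusted p = 0.0329). Abcd3, a peroxisomal transporter, fell by the smaller fitted value of -0.72 ± 0.19 (adjusted p = 0.0435). None of 29 nuclear genes of the respiratory chain passed in edgeR (1 at an unadjusted p under 0.05) or DESeq2, with log2 fold changes from -0.40 to 0.34.

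Genes of the secretory pathway rose modestly and in the same direction, with 8 of 26 called higher and all 26 positive at a median of 0.58. Creb3l1, a transcription factor that drives collagen secretion, went from 28.2, 38.3 and 44 CPM to 88, 101 and 146 CPM (1.6 ± 0.30, adjusted p = 0.0273). Sec24d, a coat protein for vesicles that carry procollagen, went from 58.3, 74.6 and 89 CPM to 129.7, 151 and 267 CPM (1.3 ± 0.28, adjusted p = 0.032), and Sec61a1, the translocation channel, from 168, 189.5 and 193 CPM to 289.8, 255 and 350.4 CPM (0.70 ± 0.14, adjusted p = 0.0288). Cell division genes gave no call in edgeR among 26 (3 at an unadjusted p under 0.05) and 1 in DESeq2, lower. Mki67 lay at 208, 503 and 320.4 CPM in sham and 93.6, 256 and 45.7 CPM in traction, with overlapping groups (-1.38 ± 0.58, adjusted p = 0.134). Of 80 cytosolic ribosomal protein genes the only one called was Rpl3l, a muscle-specific copy of Rpl3, which fell (-3.88 ± 0.95, adjusted p = 0.0373) with 29.8 CPM in sham replicate 1 and under 6 CPM elsewhere. In the cholesterol list Insig1, a brake on sterol synthesis, fell (-0.63 ± 0.15, adjusted p = 0.0348). The endocannabinoid list had 2 of 15 lower, the degrading enzyme Faah (-1.27 ± 0.33, adjusted p = 0.0423) and the synthetic enzyme Napepld (-0.80 ± 0.22, adjusted p = 0.0464).

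Hair genes held the largest counts of genes that fell among the 56 lists. All 31 hair shaft and inner root sheath genes tested had negative fold changes, and 14 passed the test where 3.54% of all genes fell. The groups did not overlap for 30 of them, where 35.7% of all genes tested had no overlap. All 53 hair keratin-associated protein genes were negative too, 51 without overlap, and 24 passed. The medians were -2.09 and -2.36, and without traction replicate 1 they were -1.98 and -2.12, although 0 and 2 genes then passed in edgeR (28 and 44 at an unadjusted p under 0.05). Tchh, trichohyalin, a structural protein of the inner root sheath, was at 7641, 13185 and 6371 CPM in sham and 1653, 3469 and 1758 CPM in traction, a log2 fold change of -1.98 ± 0.45 (SE, edgeR adjusted p = 0.0329). Trichohyalin had the largest fall in CPM of all genes called, from one of the most abundant transcripts of the sham scars. Krt84, a hair and nail keratin, went from 102, 192 and 99 CPM to 22, 46.4 and 27.9 CPM (-2.03 ± 0.51, adjusted p = 0.0397). Krt39, a hair cuticle keratin, went from 10.3, 8.63 and 5.16 CPM to 0.952, 1.85 and 0.822 CPM (-2.73 ± 0.61, adjusted p = 0.0329). In each of these traction replicate 2 was the highest of the traction libraries and still below every sham library. The inner root sheath keratins Krt71, Krt25 and Krt27 were lower by 3- to 4-fold but missed the threshold, Krt71 being at 4286, 8369.6 and 5223 CPM in sham and 1437, 2313 and 1399.5 CPM in traction (-1.8 ± 0.61, adjusted p = 0.078).

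The keratin-associated proteins fill the space between keratin filaments of the hair shaft and lie in clusters on a few chromosomes. On chromosome 11 (GRCm38.p6, 99550132 to 99993994) 16 of 22 tested fell at a median of -2.22, and on chromosome 16 (88610709 to 89571183) 8 of 22 at a median of -2.54. The 5 on chromosome 7 and 3 on chromosome 10 were all negative with none called, in edgeR. Krtap22-2 was at 49.2, 43.8 and 23.9 CPM in sham and 3.05, 7.33 and 3.51 CPM in traction, a log2 fold change of -3.07 ± 0.59 (SE, edgeR adjusted p = 0.0278). Krtap4-2 went from 11.7, 9.14 and 9.84 CPM to 1.43, 3.38 and 1.83 CPM (-2.21 ± 0.37, adjusted p = 0.0252). The Krtap4 genes are near copies of each other, so how reads were shared among them is uncertain.

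Regulators of the hair follicle fell in 6 of 37 cases, with none higher and 32 negative, where 3.54% of all genes fell. Without traction replicate 1 none was called in edgeR. The median was then -0.93 against -0.89, and 23 rather than 25 had an unadjusted p under 0.05. Hoxc13, the transcription factor that controls hair keratins, went from 28.8, 77.6 and 35.6 CPM to 9.4, 19.1 and 14.8 CPM (-1.71 ± 0.44, adjusted p = 0.0406). Gata3, needed for the inner root sheath, went from 85.7, 87.8 and 49.7 CPM to 23, 36.5 and 31.1 CPM (-1.3 ± 0.29, adjusted p = 0.0326), and Lhx2, a follicle stem cell factor, from 23.7, 42.5 and 19.9 CPM to 8.68, 12.9 and 9.04 CPM (-1.49 ± 0.33, adjusted p = 0.0328). Bmp4, a ligand of the follicle and its papilla, went from 21.8, 23.1 and 12.4 CPM to 7.9, 8.19 and 4.33 CPM (-1.49 ± 0.36, adjusted p = 0.0367). Krt15, a keratin of the follicle bulge, fell from 1471, 529 and 387 CPM to 44.1, 203 and 137 CPM (-2.64 ± 0.59, adjusted p = 0.0329), with sham replicate 1 far above the rest.

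Some other appendage and pigment genes were lower as well, where 3.54% of all genes fell. Without traction replicate 1, 0 of 20 sebaceous, 0 of 13 melanocyte and 1 of 26 epidermal genes were called lower in edgeR. The medians of these lists were then -0.84, -1.45 and -0.56, against -0.86, -1.73 and -0.67. Sebaceous and skin lipid genes fell in 3 of 20, among them Awat2, a wax synthase, from 13.5, 5.47 and 8.48 CPM to 1.24, 4.46 and 2.38 CPM (-1.76 ± 0.44, adjusted p = 0.0389), and Dgat2l6 (-1.62 ± 0.36, adjusted p = 0.0329). Melanocyte genes fell in 2 of 13. Mlana, a melanosome protein, went from 11.8, 24.8 and 12.3 CPM to 2.76, 5.48 and 3.51 CPM (-2.06 ± 0.53, adjusted p = 0.0415) and Mitf, the master regulator of pigment cells, from 74.7, 76.6 and 66 CPM to 40.5, 56.7 and 34.8 CPM (-0.72 ± 0.19, adjusted p = 0.0431). Of 26 genes of the interfollicular epidermis 2 fell, Aloxe3 (-0.74 ± 0.19, adjusted p = 0.0397) and Ppl (-0.76 ± 0.20, adjusted p = 0.0447), and none rose. Krt79, a keratin of the upper follicle, and Cst6, a protease inhibitor of cornified layers, were among the largest falls in CPM. Cst6 went from 1743, 766 and 993 CPM to 193, 531 and 263 CPM (-1.83 ± 0.46, adjusted p = 0.0389). The wound-edge keratins and alarmins moved the other way, with 6 of 30 higher and none lower. Sprr2i, a cornified envelope precursor, went from 0.239, 0.45 and 1.28 CPM to 102, 3.8 and 3.39 CPM (5.78 ± 1.41, adjusted p = 0.0372), and Slpi, a protease inhibitor of mucosa and wounds, from 3.71, 1.42 and 4.11 CPM to 147, 13.1 and 21.8 CPM (4.3 ± 0.95, adjusted p = 0.0329). Without traction replicate 1 none of the 30 was called higher by edgeR, where 1.44% of all genes were, 12 rather than 20 had an unadjusted p under 0.05, and the median was 1.40 against 2.39. Krt6b, a keratin of migrating epidermis, ranged from 109 to 2806 CPM among the sham libraries alone (2.04 ± 1.23, adjusted p = 0.279).

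Muscle genes were lower in traction but spread widely in sham. The median of 25 skeletal muscle genes was -2.73 with none called in edgeR (21 at an unadjusted p under 0.05) and 17 lower and 1 higher in DESeq2. When traction replicate 1 was left out, the median was -3.84 and 5 were called lower in edgeR. Their median level stood 1.73 log2 units above the sham mean in sham replicate 1 and 1.53 below it in sham replicate 3. Myh1, a fast myosin, was at 4536, 1176 and 569 CPM in sham and 718, 146 and 81.7 CPM in traction, and the groups overlapped (-2.73 ± 0.92, adjusted p = 0.0781). Some muscle genes outside that list passed and were among the largest falls: Trdn, triadin of the calcium release complex, went from 247, 60.4 and 28.4 CPM to 5.26, 2.85 and 0.637 CPM (-5.27 ± 1.02, adjusted p = 0.0278). Xirp2, a sarcomere protein, went from 982, 135 and 81.3 CPM to 19.7, 10.8 and 5.1 CPM (-5.07 ± 1.08, adjusted p = 0.0311), and Mstn, myostatin, from 26.9, 5.61 and 0.59 CPM to 0.143, 0.155 and 0.164 CPM (-6.14 ± 1.31, adjusted p = 0.0314). In each of these sham replicate 1 was the highest library by over 3 times. Of the genes that fell, 456 were highest in sham replicate 1, 180 in replicate 2 and 32 in replicate 3. The part that muscle in the piece of tissue has in these falls was not tested.

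White adipocyte markers were negative in 21 of 21 genes with none called by edgeR (1 at an unadjusted p under 0.05) and 1 by DESeq2, at a median of -1.20. The median was -2.20 without traction replicate 1, with 5 at an unadjusted p under 0.05. Car3, an abundant carbonic anhydrase of fat and muscle, was at 2103, 1121 and 998 CPM in sham and 609, 24.4 and 108 CPM in traction (-2.51 ± 1.34, adjusted p = 0.224), and Lpl, lipoprotein lipase, at 464, 528 and 655 CPM and 222, 149 and 93 CPM (-1.83 ± 0.84, adjusted p = 0.162). Of 18 Schwann cell and nerve genes 1 was called lower, Map2 (-1.08 ± 0.29, adjusted p = 0.0464), where 3.54% of all genes fell. The list had 15 negative and 3 positive members at a median of -0.64, and Map2 was not called without traction replicate 1. Among single genes outside these groups, Pyy, a gut and islet peptide, went from 46.1, 19.1 and 11.7 CPM to 0, 2.96 and 2.14 CPM (-3.91 ± 1.08, adjusted p = 0.0486), and Ear2, an eosinophil ribonuclease with close copies, from 75.2, 19.8 and 21.4 CPM to 3.66, 3.8 and 3.1 CPM (-3.46 ± 0.71, adjusted p = 0.0302).

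The genes that the study names from these libraries were read in the same fit. They were chosen on these samples, so their directions are not independent evidence. All 17 genes of its profibrotic set were positive, and 11 passed, among them Runx1 (1.31 ± 0.26, adjusted p = 0.0282), Ets1 (1.23 ± 0.24, adjusted p = 0.0278), Src (1.06 ± 0.23, adjusted p = 0.0326) and Rac1 (0.74 ± 0.17, adjusted p = 0.0337), a transcription factor pair, a kinase and a small GTPase. All 16 genes of its inflammatory set were positive and 10 passed, including Stat3 (1.21 ± 0.33, adjusted p = 0.0467), Jak3 (1.5 ± 0.38, adjusted p = 0.0387) and Csf1 (1.42 ± 0.36, adjusted p = 0.0386), while Vegfa (0.90 ± 0.28, adjusted p = 0.0613), Il33 (1.67 ± 0.50, adjusted p = 0.0591), Jak2 (1.27 ± 0.40, adjusted p = 0.0676) and Ccl2 (1.2 ± 0.43, adjusted p = 0.0881) did not. All 21 genes of its fatty acid and hair sets were negative and 7 passed, and Wnt10b (-1.09 ± 0.37, adjusted p = 0.0751), Foxn1 (-0.89 ± 0.32, adjusted p = 0.0868), Gli1 (-1.41 ± 0.48, adjusted p = 0.0801) and Acsl3 (-0.66 ± 0.22, adjusted p = 0.0723) did not. Without traction replicate 1, 3 of 17, 5 of 16 and 0 of 21 passed in edgeR, with medians of 1.07, 1.04 and -1.41. With all libraries DESeq2, the tool the study used, called all 17 and all 16 higher and all 21 lower. The genes given as not passing are thus so in edgeR only.

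**Figure D4:**
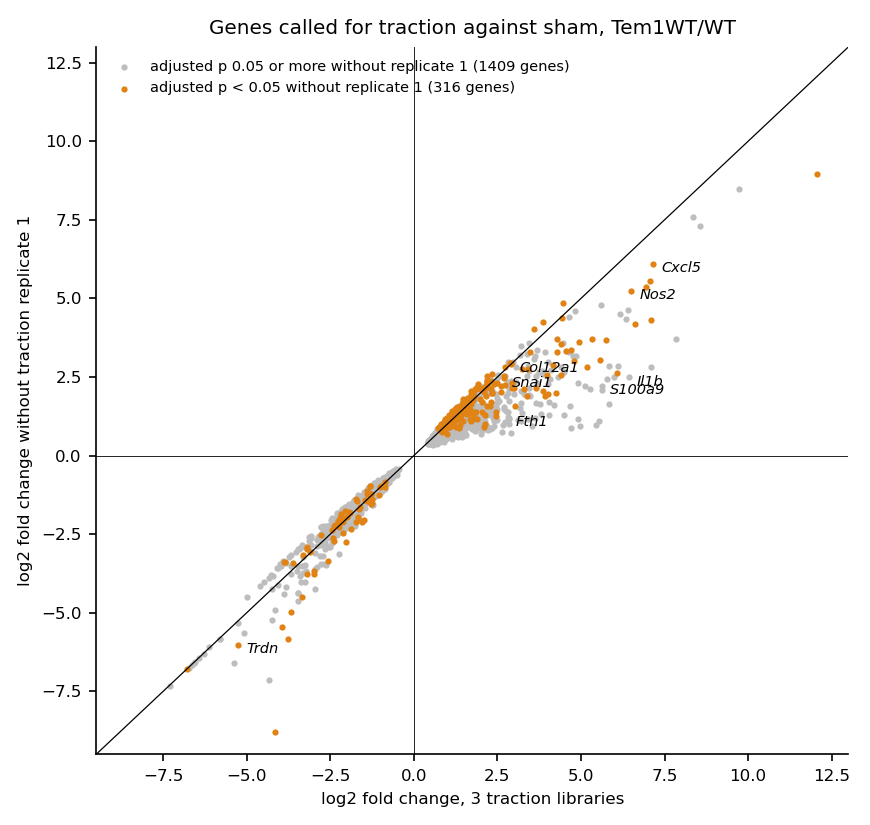
Log2 fold changes of the 1725 genes called, from all 3 traction libraries (horizontal axis) and without traction replicate 1 (vertical axis), with equal values on the line. Orange points are the 316 genes also called without that library. S100a9 and Fth1 drop from 5.63 and 2.8 to 2.21 and 1.22, and Tnc from 3.75 to 2.64, whereas Col12a1 and Snai1 stay near the line.

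The same contrast in Tem1lacZ/lacZ scars, which shares no library with this one, served only to set values side by side. In edgeR none passed there, where the smallest adjusted p was 0.598 and an unadjusted p under 0.05 was found for 1530 genes. Of the 1725 genes changed in Tem1WT/WT, 1530 (88.7%) had the same sign in Tem1lacZ/lacZ, against 68.4% of all genes tested, and the median log2 fold change there was 0.42 for the genes that rose and -0.37 for those that fell. The test of the difference between the genotypes called no gene in edgeR, with 0.548 as the smallest adjusted p and 1680 genes under 0.05 before adjustment, so no change given here is shown to be particular to Tem1WT/WT scars. Col12a1 had 1.34 in Tem1lacZ/lacZ beside 2.91, and Emilin1 had 1.4 beside 2.39. P4ha1 had -0.15 beside 1.08, and Tchh 0.10 beside -1.98.

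**Figure D5:**
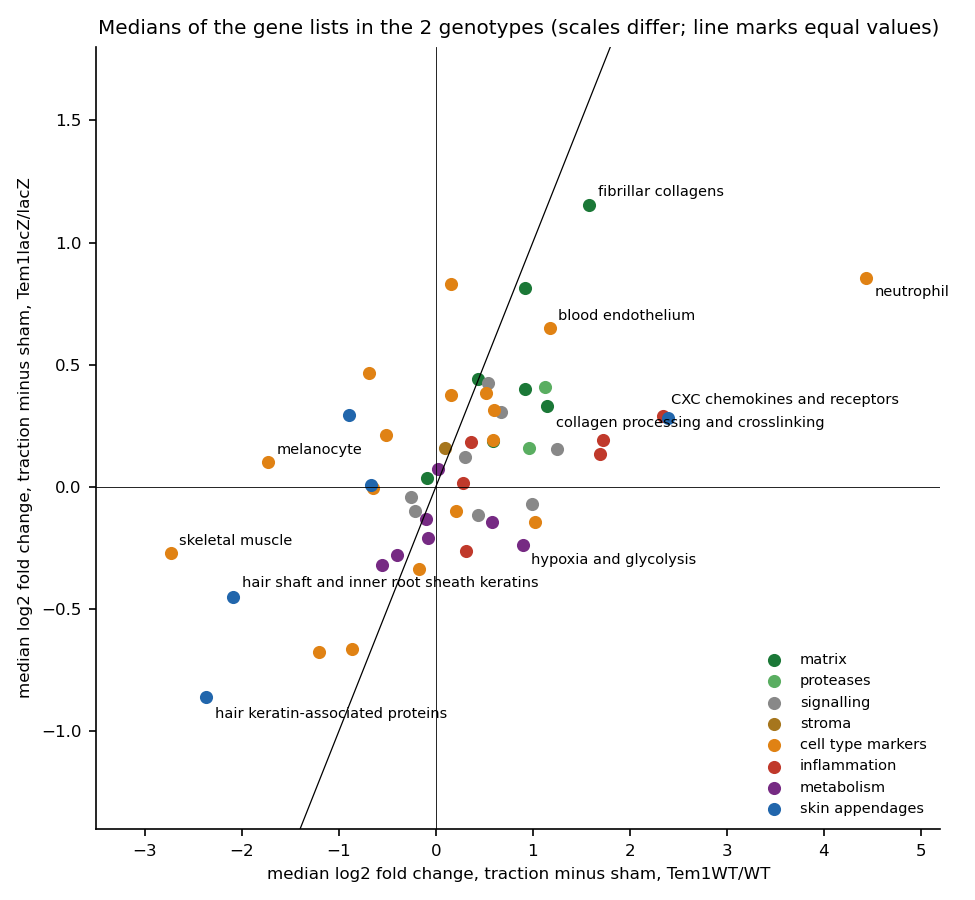
Median log2 fold change of traction against sham of each gene list in Tem1WT/WT (horizontal axis) and Tem1lacZ/lacZ scars (vertical axis). The vertical axis covers a narrower range of values, points are coloured by the role of the list, and a line marks equal values. Fibrillar collagens are at 1.58 and 1.15, neutrophil markers at 4.44 and 0.86, and hair keratin-associated proteins at -2.36 and -0.86.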

How the data were processed

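Polyadenylated RNA from 3 scars per group was sequenced as 150 bp paired-end reads from a stranded kit (TruSeq Stranded mRNA). The authors trimmed reads with fastp (0.20.0), aligned them with HISAT2 (2.1.0) to GRCm38 and counted them per gene with featureCounts (2.0.0); the deposited values are raw counts, and the strand setting and the treatment of multi-mapping reads are not given in the sources used here, so antisense and near-identical genes are uncertain. No 2 of the 6 libraries had identical counts.

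Counts of all 12 libraries were fitted in edgeR (4.0.16, R 4.3.3) by a quasi-likelihood model of the 4 groups (8 residual degrees of freedom, robust, TMM, filterByExpr by group), two-sided, with Benjamini-Hochberg adjusted p under 0.05. DESeq2 (1.42.0) and limma (3.58.1) served as alternatives. SE is the log2 fold change over the root of F. The p-values set the difference of the group means against a spread between mice estimated from all 12 libraries, 6 of them Tem1lacZ/lacZ.

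Named genes are the 12 largest log2 rises and falls among called genes whose groups do not overlap (average log2 CPM 1 or more), the 8 largest in CPM, per list the 3 called genes of smallest adjusted p (or 2 where none) and the most abundant, Cd248, and the genes the study names. The 56 lists and this rule were chosen with earlier results of these data known. Gene positions and promoters are from RefSeq (GRCm38.p6), matched by symbol for 93.7% of the genes tested. Results for 2 genes are not reported here.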

Additional observations from a re-analysis of the deposited data

How the results depend on the processing

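The counts of genes changed, higher and lower (1725, 1057 and 668) depended on the fit. Each of the 1725 genes kept its sign wherever it was tested, which their call on these same libraries largely fixes in advance. Testing all genes with a count gave 1011, 579 and 432, which spreads the adjustment over 28591 genes. DESeq2 gave 4047, 2234 and 1813 on all libraries and 3174, 1759 and 1415 on the 6 Tem1WT/WT libraries, where edgeR gave 0 in each (4876 at an unadjusted p under 0.05). limma-voom with sample weights gave 748, 621 and 127. The cause of these differences was not tested. Requiring a log2 change of at least 1 left 664 higher and 535 lower by construction. With 1 library left out the counts ranged from 0 to 2861 changed, 0 to 1578 higher and 0 to 1283 lower, with 0 without sham replicate 1 or 2, 820 without sham replicate 3, and 360, 2861 and 704 without traction replicates 1, 2 and 3. Size factors of DESeq2 in edgeR (1806), upper quartile scaling (1673), fitting without robust estimation (1778) and edgeR's newer quasi-likelihood form (2032, chosen after the data were seen, since the planned legacy form is the default here) kept the count of changed genes within 1.5 times.

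With the replicate number as a block, 1467 genes changed, 792 higher and 675 lower. Same-numbered libraries come from different mice, and their deviations from the group means correlated at 0.12, -0.0003 and 0.08. Those of differently numbered sham and traction libraries correlated at -0.13 to 0.07. With 3 libraries a group, these values cannot decide whether libraries of the same number share anything else.

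A few uncalled values changed sign when 1 library was left out. Over these fits the log2 fold change ranged from -0.050 to 0.81 for Cd248, from -0.71 to 0.064 for Cd74, from -0.23 to 0.053 for Dcn, from -0.22 to 0.60 for Fbn1 and from -0.16 to 3.93 for Gbp2. Of the 896 medians of the 56 lists under the alternatives, 21 in 10 lists had the other sign. No detection limit was computed. With 3 mice a group and a biological coefficient of variation of 34.2%, the log2 difference of 1.68 for Col1a1 missed the threshold in edgeR. DESeq2 called Col1a1 higher. Larger differences in more variable genes also missed the edgeR threshold, such as 7.1 for Cxcl2, whose groups overlapped.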
